A study of Mus musculus with 6 samples.

Results

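Genes of glutathione and peroxide detoxification were compared between 2 inbred mouse strains, C57BL/6 and DBA/2, in hippocampus. They comprise the glutathione S-transferases (Gst and Mgst symbols), glutathione peroxidases (Gpx), peroxiredoxins (Prdx), thioredoxin reductases (Txnrd) and superoxide dismutases (Sod), with Gclc, Gclm, Gss, Gsr, Nqo1 and Hmox1. Symbols of these families were matched in the deposited table and those ending in -ps were left out, which gave 53 genes of 51912. The rule reads symbols alone, and it was set with earlier results of these data known. Each strain had 3 libraries of hippocampal RNA, with total counts of 13867280 to 20185683 in C57BL/6 and 13839366 to 16912153 in DBA/2. The labels name strain and tissue for each group and give no treatment, allele, sex, age or substrain. Whether 1 library stands for 1 animal is not stated, and the p-values therefore rest on library-to-library spread that could in part be technical.

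Glutathione is a tripeptide thiol made from glutamate, cysteine and glycine by glutamate-cysteine ligase and then glutathione synthetase. Glutathione peroxidases spend it to reduce peroxides, glutathione reductase restores it with NADPH, and the transferases attach it to electrophiles. Peroxiredoxins reduce peroxides with electrons that mostly come from thioredoxin and thioredoxin reductase, and superoxide dismutases make the peroxide that both systems remove. In brain, astrocytes are known as the richer glutathione store and export precursors to neurons. Several of these genes are known targets of the transcription factor NRF2 (Nfe2l2), which binds the antioxidant response element.

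In DBA/2, 13 of the 41 genes tested were lower and none was higher. Genes with too few counts for a test numbered 12. In the same fit 13.7% of all 17517 genes tested were called lower in DBA/2 and 9.09% were called higher (22.8% in either direction), with calls made by the quasi-likelihood test of edgeR at a p under 0.05 after Benjamini-Hochberg adjustment over all genes tested (written here as edgeR adjusted p). The largest called fall was in Gpx3, the secreted glutathione peroxidase, followed by Gsr, the glutathione reductase, Gsto1, an omega-class transferase, and Gclm, the modifier subunit of glutamate-cysteine ligase. Gstm7 and Gpx4 complete the 6 genes that stayed called under each of 15 alternative settings, removals of single libraries included. The other 7 lost the call under some of these, and their log2 fold changes ran from -0.42 in Sod3 to -0.15 in Gstm1. The call was kept in 13 of the 15 settings for Gpx1, 8 for Gstm1 and 7 for Prdx1. It was kept in 6 for each of Prdx6, Sod1 and Sod3, and in 3 for Prdx3. At an unadjusted p under 0.05, 2 of the 41 genes were higher and 17 lower, where 14.7% and 18.6% of all genes tested were. DESeq2 and limma-voom also called none higher, where 7.37% (Wald test) and 8.91% of all genes were. Limma on FPKM called 2 higher with a pseudocount of 1 and 1 with a pseudocount of 0.1, where 8.7% and 8.56% were. With library size alone as the scaling, 7 were lower and 1 higher, where 12.6% and 11.1% of all genes were.

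The median log2 fold change of the tested genes was -0.10, beside 0.00 for all genes tested (positive values are higher in DBA/2). Of the 41, 29 had a negative log2 fold change and 12 a positive one. In 12 genes all DBA/2 libraries lay below all C57BL/6 libraries and in 4 genes above them, where 20.1% and 16.7% of all genes tested were separated in these directions. In RNA from whole tissue, fewer cells of a type and less RNA per cell cannot be told apart.

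The promoter windows of 4 of the 8 genes that hold the core of the antioxidant response element are printed here. The 4 others are Sod1, called lower, and Gsta3, Gstm5 and Mgst1, not called. The core searched was TGACNNNGC on either strand, which reads GCNNNGTCA on the other one, and its letters are in capitals. Windows are RefSeq's on GRCm38.p6, 250 bases before to 50 bases after a start site, written 5′ to 3′ on the gene's strand. Gclm, Gstm7 and Prdx1 were called lower in DBA/2, and Txnrd1, the cytosolic thioredoxin reductase, was not called. The windows lie at chr3:122245307-122245606 on the plus strand for Gclm, chr3:107931565-107931864 on the minus strand for Gstm7, chr4:116685349-116685648 on the plus strand for Prdx1 and chr10:82858956-82859255 on the plus strand for Txnrd1.
Gclm: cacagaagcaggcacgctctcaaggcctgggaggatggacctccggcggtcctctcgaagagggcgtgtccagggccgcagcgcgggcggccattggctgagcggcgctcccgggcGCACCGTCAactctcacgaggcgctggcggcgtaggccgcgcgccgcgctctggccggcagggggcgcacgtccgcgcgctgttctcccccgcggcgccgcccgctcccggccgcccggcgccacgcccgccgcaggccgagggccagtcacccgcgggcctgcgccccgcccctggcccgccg
Gstm7: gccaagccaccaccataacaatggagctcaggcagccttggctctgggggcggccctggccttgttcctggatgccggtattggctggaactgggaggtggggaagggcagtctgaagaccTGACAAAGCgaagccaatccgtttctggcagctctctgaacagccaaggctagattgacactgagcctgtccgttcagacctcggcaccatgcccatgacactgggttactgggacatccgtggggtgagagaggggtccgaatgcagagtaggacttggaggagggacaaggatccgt
Prdx1: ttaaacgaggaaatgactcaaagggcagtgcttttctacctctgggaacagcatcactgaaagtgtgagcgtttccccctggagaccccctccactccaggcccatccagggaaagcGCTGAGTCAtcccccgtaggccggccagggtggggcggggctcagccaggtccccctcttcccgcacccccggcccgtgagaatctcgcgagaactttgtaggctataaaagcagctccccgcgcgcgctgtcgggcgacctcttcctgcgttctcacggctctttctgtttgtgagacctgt
Txnrd1: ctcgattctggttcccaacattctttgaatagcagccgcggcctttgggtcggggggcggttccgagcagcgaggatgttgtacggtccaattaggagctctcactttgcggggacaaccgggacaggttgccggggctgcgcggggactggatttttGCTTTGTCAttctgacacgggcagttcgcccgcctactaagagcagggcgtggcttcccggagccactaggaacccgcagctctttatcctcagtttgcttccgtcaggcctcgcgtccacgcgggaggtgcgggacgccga
The core begins at -134 from the start site of the printed window in Gclm, -129 in Gstm7, -133 in Prdx1 and -92 in Txnrd1. Gclm and Prdx1 have 1 window each. Gstm7 has another window, at chr3:107931768-107932067, whose start site is the annotated 5′ end of the gene, and it lacks the core, so the window printed belongs to an internal start. Txnrd1 has 3 windows, and the others, of which 1 starts at the annotated 5′ end, lack the core too. Of 44 genes of this group with a window, 8 (18.2%) held the core in at least 1 window, against 14% of 27025 genes with windows of the same length. Among genes called lower the core was in 4 of 10, the other being Sod1, and among tested genes that were not called in 4 of 24, the others being Gsta3, Gstm5 and Mgst1. None of the 10 windowed genes without a test held it. The called genes Gsr, Prdx6 and Sod3 had no window. Other motifs were searched in the same 10 lower and 24 uncalled genes. The TATA box (TATAAA) was in 5 and 2 of them, the GC box (GGGCGG) in 9 and 17 and the E-box (CACGTG) in 0 and 1. Of the 27025 genes with windows, 15.7%, 38.2% and 8.09% held these motifs, and of the 44 genes of this group 20.5%, 65.9% and 4.55%. A match describes these letters in this window and shows no binding, and no DBA/2 sequence was used here.

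Levels per length, in the authors' FPKM (fragments scaled to listed exon length and library total), spanned a wide range. Sod1, the cytosolic superoxide dismutase, stood highest with a mean of 109 FPKM over the 6 libraries. Gstm1 at 97.6 and Gstm5 at 86.9 FPKM, mu-class transferases, came next, followed by Prdx5 at 57.5, the phospholipid hydroperoxide peroxidase Gpx4 at 56.3 and Prdx2 at 43.2 FPKM. The place of Sod1 depends on the listed exon length of 646 bases, whereas the exons of this gene in GENCODE M21 cover 3970 bases. Mu-class genes made up 78% to 80.2% of the summed FPKM of the Gst genes in each library. Peroxiredoxins held 24.5% to 25.2% of the summed FPKM of all 53 genes and glutathione peroxidases 10.9% to 12.4%. Nqo1, a quinone reductase, and Hmox1, heme oxygenase 1, both known to be strongly inducible, had means of 2.86 and 2.03 FPKM.

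**Figure D1:**
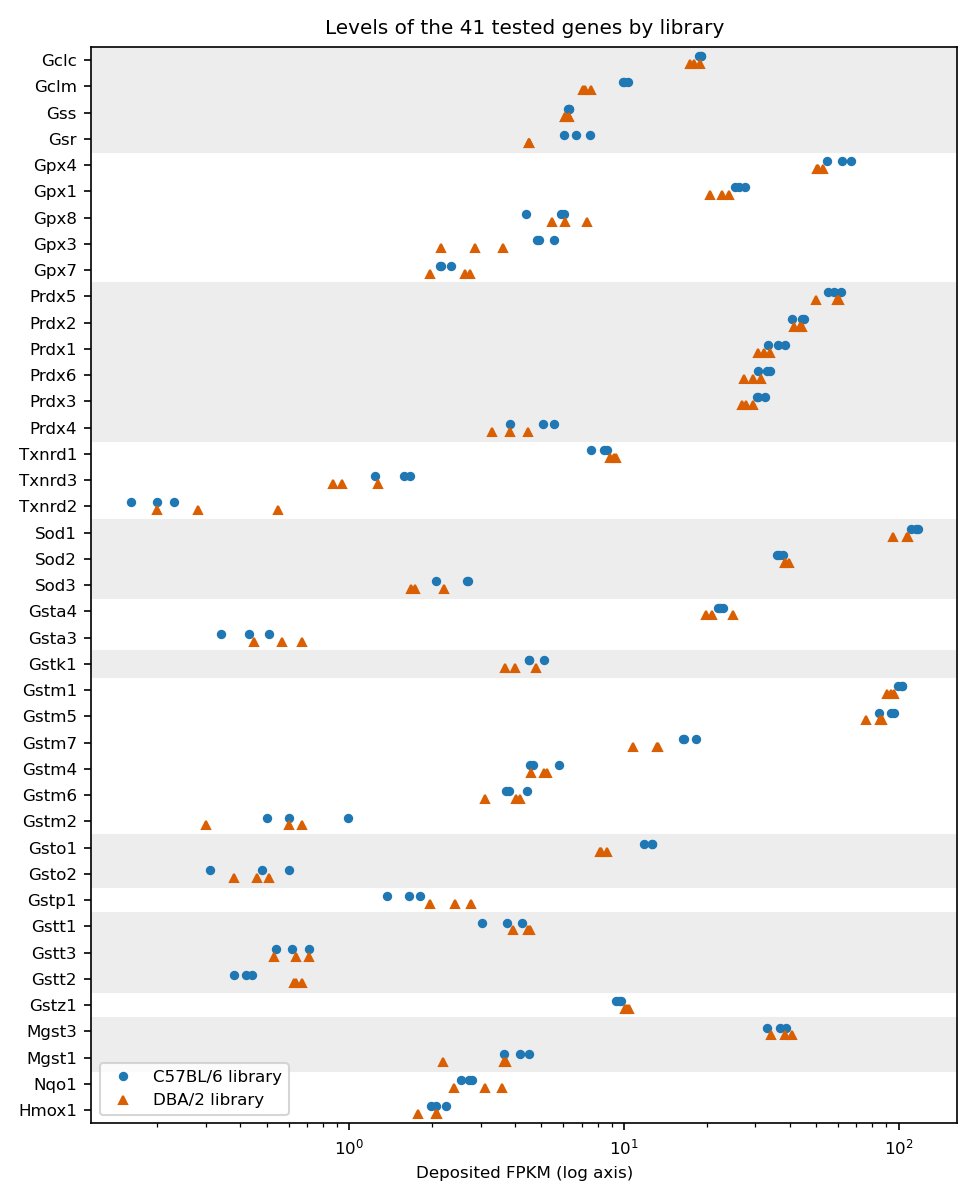
Deposited FPKM (log axis) of the 41 tested genes, with 1 circle for each C57BL/6 library and 1 triangle for each DBA/2 library; shaded bands mark families. Sod1, Gstm1 and Gstm5 stand at the right, with means of 109, 97.6 and 86.9 FPKM, and Txnrd2 has the lowest mean, 0.27 FPKM.

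Among the enzymes of glutathione synthesis and recycling, Gclm and Gsr fell while the differences of Gclc and Gss did not pass the test. Gclm (chromosome 3, 122245557 to 122270732) had 63.4, 62.7 and 65.4 CPM in the C57BL/6 libraries and 47.4, 45 and 44.3 CPM in the DBA/2 libraries (CPM, counts scaled to library totals with TMM factors). The 3 DBA/2 libraries all lay below the 3 C57BL/6 libraries. Its log2 fold change was -0.49 ± 0.06 (SE, n = 3 each; edgeR adjusted p = 9.44e-07). In Gclm 4.7% of the exon bases are shared with other genes, among them Gm17494 on the other strand with 933 counts. Gclc, the catalytic subunit of the same ligase (chromosome 9, 77754535 to 77794485), had 71.3, 72.2 and 72.3 CPM in C57BL/6 and 67, 64.5 and 71 CPM in DBA/2. Its libraries were also separated by strain, but by a log2 fold change of only -0.09, with a 95% interval of -0.21 to 0.03 (edgeR adjusted p = 0.273). The ratio of Gclm to Gclc FPKM within a library, which does not depend on library scaling, was 0.531 ± 0.011 in C57BL/6 and 0.405 ± 0.0271 in DBA/2 (SD, n = 3 each).

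Gsr (chromosome 8, 33652523 to 33698163) had 18.5, 20.9 and 16.8 CPM in C57BL/6 and 12.3 CPM in each DBA/2 library. The C57BL/6 libraries spread more than the DBA/2 libraries and did not overlap with them. The log2 fold change was -0.60 ± 0.10 (SE, n = 3 each; edgeR adjusted p = 0.0001). Gss, glutathione synthetase (chromosome 2, 155563181 to 155592810), had 37.6 ± 0.363 CPM in C57BL/6 against 36.2 ± 0.468 CPM in DBA/2 (SD over 3 libraries each), and 15.4% of its exon bases are shared with genes on the other strand. The Gsr to Gss ratio of FPKM was 1.07 ± 0.112 in C57BL/6 and 0.731 ± 0.00981 in DBA/2 (SD, n = 3 each). For both this ratio and Gclm to Gclc the exact two-sided permutation test gave p = 0.1, the smallest value that 3 against 3 libraries allow, and 0.2 after Benjamini-Hochberg adjustment over the 4 ratios compared. These pairs were chosen after the values of their genes were known.

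**Figure D2:**
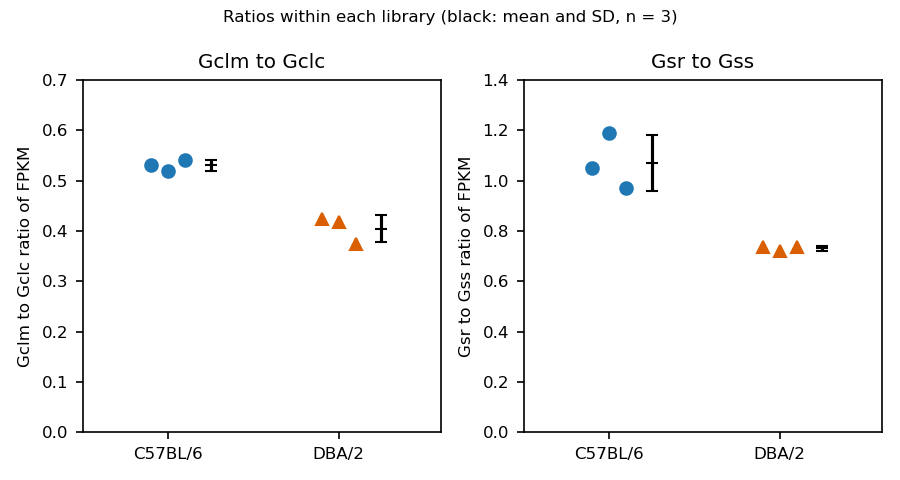
Ratio of FPKM within each library for Gclm to Gclc and for Gsr to Gss, by strain, with 1 point for each library and the mean and SD in black (n = 3). The Gclm to Gclc ratio is 0.519 to 0.541 in C57BL/6 and 0.374 to 0.423 in DBA/2, and the Gsr to Gss ratio is 0.971 to 1.19 and 0.72 to 0.738.

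Of the 5 glutathione peroxidase genes tested, 3 fell (60%, beside 13.7% of all genes) and none rose. Gpx3 (chromosome 11, 54902453 to 54910377) had 8.97, 8.82 and 10.2 CPM in C57BL/6 and 3.87, 6.48 and 5.19 CPM in DBA/2. Its DBA/2 libraries reached 41.6% to 69.5% of the C57BL/6 mean, and the log2 fold change was -0.85 ± 0.16 (SE, n = 3 each; edgeR adjusted p = 0.000322). Gpx4 (chromosome 10, 80047166 to 80056439), the selenoenzyme that reduces lipid hydroperoxides in membranes, had 108, 116 and 95.2 CPM in C57BL/6 and 90.8, 85.9 and 87.2 CPM in DBA/2. The groups did not overlap, with a log2 fold change of -0.27 ± 0.06 (SE, n = 3 each; edgeR adjusted p = 0.0025).

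The Gpx4 level is uncertain because reads can be split with a copy. The pseudogene AC153368.1 (chromosome 10, 45875291 to 45876086) matches Gpx4 at 99.7% over 733 bases and held 4656 counts in C57BL/6 and 3963 in DBA/2, beside 5301 and 4215 for Gpx4. With both summed the log2 fold change was -0.23 (edgeR adjusted p = 0.0168). Gpx1, the cytosolic and mitochondrial peroxidase (chromosome 9, 108338903 to 108340343), had 40.1, 38 and 36.7 CPM in C57BL/6 and 34.5, 29.2 and 32.6 CPM in DBA/2. It fell by 0.25 on the log2 scale without overlap (edgeR adjusted p = 0.0141), and the adjusted p was 0.0801 without C57BL/6 replicate 1 and 0.0869 without DBA/2 replicate 2. Gpx7 and Gpx8, peroxidases of the endoplasmic reticulum, had log2 fold changes of 0.12 and 0.18 that did not pass. Gpx2, Gpx5 and Gpx6 had at most 16 counts over all libraries and were not tested.

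**Figure D3:**
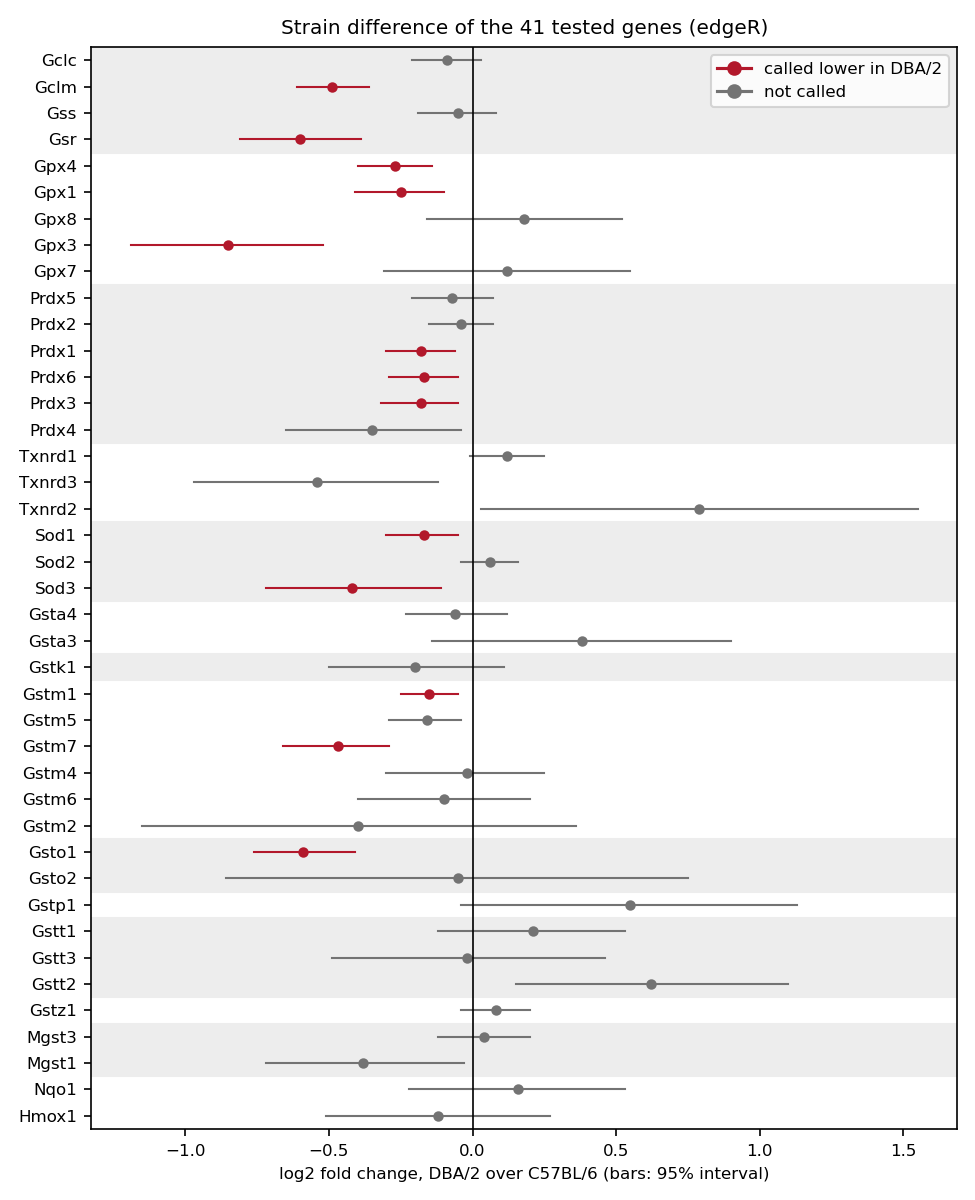
Log2 fold change (DBA/2 over C57BL/6) of the 41 tested genes with its 95% interval from edgeR, in the order of their roles; red marks the 13 genes called lower and grey those not called. The red points run from -0.85 in Gpx3 to -0.15 in Gstm1, and no gene to the right of 0 was called.

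Of 6 peroxiredoxin genes tested, 3 fell (50%, beside 13.7% of all genes), each by less than Gpx1, and none rose. Prdx1, a cytosolic peroxiredoxin (chromosome 4, 116685544 to 116700822), had 119, 112 and 103 CPM in C57BL/6 and 103, 97.5 and 92.9 CPM in DBA/2. Prdx6, which uses glutathione and has a single active cysteine (chromosome 1, 161240112 to 161251219), had 165, 160 and 148 CPM in C57BL/6 and 150, 140 and 131 CPM in DBA/2. For both genes the highest DBA/2 library passed the lowest C57BL/6 library. Prdx3, the mitochondrial form (chromosome 19, 60864051 to 60874556), had 48.9, 45.9 and 45.2 CPM in C57BL/6 and 39.5, 40.6 and 43.5 CPM in DBA/2, with no overlap. The log2 fold changes were -0.18 for Prdx1, -0.17 for Prdx6 and -0.18 for Prdx3 (edgeR adjusted p = 0.0256, 0.0313 and 0.0467).

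All 3 calls were lost when single libraries were removed. They were also lost with library size alone, in the DESeq2 Wald test and in limma on FPKM with either pseudocount. Those of Prdx6 and Prdx3 were lost in limma-voom too, and that of Prdx3 also with DESeq2 size factors and with no count filter. The edgeR adjusted p of Prdx1 was 0.194 and 0.0741 when C57BL/6 replicate 1 or 2 was removed, and 0.0561 and 0.125 for DBA/2 replicates 2 and 3. That of Prdx6 was 0.171, 0.104, 0.0703 and 0.181 without the same libraries. For Prdx3 it was 0.204, 0.0847 and 0.0749 without C57BL/6 replicates 1, 2 and 3, and 0.177 and 0.101 without DBA/2 replicates 1 and 2. Prdx2, Prdx4 and Prdx5 did not pass. Prdx5 and Prdx2 had 95% intervals of -0.21 to 0.07 and -0.15 to 0.07 on the log2 scale. Of their exon bases 19.1% and 11.5% are shared with genes on the other strand. Prdx4, the form of the endoplasmic reticulum and the only X-linked gene of this group, had 10.2 ± 1.87 CPM in C57BL/6 against 8.1 ± 1.22 CPM in DBA/2 (SD over 3 libraries each). Its log2 fold change of -0.35 (95% interval -0.65 to -0.04) was larger than those of the 3 called genes, with an edgeR adjusted p of 0.0946. It was called lower without C57BL/6 replicate 2 (adjusted p = 0.0247) and without DBA/2 replicate 1 (adjusted p = 0.0426, edgeR).

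Of the 3 superoxide dismutases, Sod1 fell by 11.2%, Sod3 fell by 25.1% and Sod2 did not pass. Sod1 (chromosome 16, 90220754 to 90226329) had 76.7, 72.3 and 74.6 CPM in C57BL/6 and 68.7, 60.7 and 69.4 CPM in DBA/2, without overlap. Sod3, the secreted form (chromosome 5, 52363791 to 52371418), had 10.2, 10.1 and 7.78 CPM in C57BL/6 and 8.16, 6.42 and 6.27 CPM in DBA/2, with overlap. Their log2 fold changes were -0.17 and -0.42 (edgeR adjusted p = 0.0456 and 0.0424). For Sod1 the adjusted p was 0.17, 0.0549 and 0.0993 without C57BL/6 replicates 1, 2 and 3 and 0.211 without DBA/2 replicate 2. For Sod3 it was 0.181 and 0.145 without C57BL/6 replicates 1 and 2 and 0.141 and 0.134 without DBA/2 replicates 2 and 3. Both calls were also lost with library size alone, in the DESeq2 Wald test and in limma on FPKM with either pseudocount. That of Sod1 was lost with DESeq2 size factors too, and that of Sod3 in limma-voom. The pseudogene Gm8566, which matches Sod1 at 98.0% over 298 bases, held 324 counts in C57BL/6 and 159 in DBA/2, and the summed pair had a log2 fold change of -0.22. Sod2, the mitochondrial manganese enzyme, had 142 ± 3.94 CPM in C57BL/6 against 148 ± 2.22 CPM in DBA/2 (SD over 3 libraries each), with a 95% interval of -0.04 to 0.16 on the log2 scale.

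None of the 3 thioredoxin reductase genes was called. Txnrd1 had 62.1, 54.5 and 60.4 CPM in C57BL/6 and 64.8, 65.2 and 62.6 CPM in DBA/2. All DBA/2 libraries lay above the C57BL/6 libraries, by a log2 fold change of 0.12 (95% interval -0.01 to 0.25). Txnrd2, the mitochondrial form, had few counts: 12, 14 and 18 in C57BL/6 and 15, 41 and 17 in DBA/2. It was called higher without DBA/2 replicate 1 (log2 fold change 1.08, edgeR adjusted p = 0.0377, against 0.131 with all libraries), and DBA/2 replicate 2 alone held 41 of its counts. Txnrd3, which can reduce both thioredoxin and glutathione disulfide, had 4.27 ± 0.643 CPM in C57BL/6 against 2.89 ± 0.604 CPM in DBA/2 (SD over 3 libraries each). Its adjusted p was 0.0611, and 0.0357 without C57BL/6 replicate 3 and 0.0263 without DBA/2 replicate 1 (edgeR).

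Among the cytosolic and mitochondrial glutathione S-transferases, 3 of 16 tested genes fell, a share of 18.8% against 13.7% of all genes. Gsto1 (chromosome 19, 47854970 to 47864790), which also acts as a thiol transferase and reduces dehydroascorbate, had 25.1, 25 and 23.4 CPM in C57BL/6 and 16, 16.1 and 16.9 CPM in DBA/2. The groups lay far apart, with a log2 fold change of -0.59 ± 0.09 (SE, n = 3 each; edgeR adjusted p = 1.19e-05). Its neighbour Gsto2 starts at 47865534 and was counted at 8, 13 and 15 in C57BL/6 against 10, 12 and 11 in DBA/2. At that depth its 95% interval, -0.86 to 0.75 on the log2 scale, also covers the difference of Gsto1. The Gsto1 to Gsto2 ratio of FPKM was 28.7 ± 10.5 in C57BL/6 and 18.8 ± 2.4 in DBA/2 (SD, n = 3 each; exact permutation p = 0.2).

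The 7 mu-class genes lie side by side on chromosome 3, from Gstm5 at 107895821 to Gstm4 at 108044894. All 6 tested had negative log2 fold changes, although that of Gstm4 (-0.02) turned positive without C57BL/6 replicate 2 or DBA/2 replicate 1 and that of Gstm6 without DBA/2 replicate 2, and 2 were called. Gstm7 (107926334 to 107931817) had 29.6, 26.5 and 26.5 CPM in C57BL/6 and 21.1, 21 and 17.2 CPM in DBA/2. It was lower in every DBA/2 library, with a log2 fold change of -0.47 ± 0.09 (SE, n = 3 each; edgeR adjusted p = 0.000301). Next to it, Gstm6 (107938847 to 107943749) had 7.99 ± 0.8 CPM in C57BL/6 against 7.47 ± 1.17 CPM in DBA/2 (SD over 3 libraries each), with a log2 fold change of -0.10. The Gstm7 to Gstm6 ratio of FPKM took the values 4.13, 4.43 and 4.32 in C57BL/6 against 3.17, 4.25 and 2.68 in DBA/2 (exact permutation p = 0.2), so that the groups overlapped.

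Gstm1, known as an astrocytic transferase (chromosome 3, 108012255 to 108017973), had 154, 154 and 147 CPM in C57BL/6 and 140, 132 and 137 CPM in DBA/2. This separation was small, with a log2 fold change of -0.15 (edgeR adjusted p = 0.0227). The adjusted p rose to 0.0941 and 0.084 without C57BL/6 replicates 1 and 2 and to 0.0731 and 0.0555 without DBA/2 replicates 2 and 3. The call was also lost with library size alone and in limma on FPKM with either pseudocount. Gstm5 had nearly the same log2 fold change, -0.16, and an adjusted p of 0.0593, which was 0.0149 without C57BL/6 replicate 3 and 0.0426 without DBA/2 replicate 1 (edgeR). Gstm5 shares 13.9% of its exon bases with the antisense gene 4933431E20Rik, which held 14544 counts, so reads of the 2 may not be told apart. Gstm2 and Gstm4 did not pass, and Gstm3 had 2 counts in all.

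**Figure D4:**
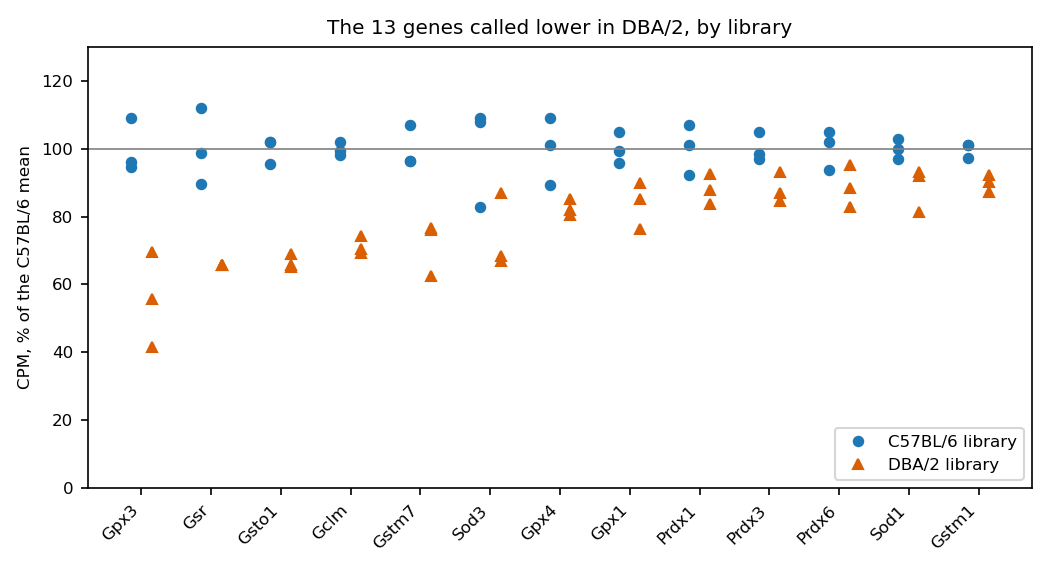
CPM of the 13 genes called lower in DBA/2, each as a percentage of its C57BL/6 mean (line at 100), with 1 point for each library. DBA/2 libraries sit at 41.6% to 69.5% for Gpx3 and at 65.1% to 69.1% for Gsto1, and the strains overlap in Prdx1, Prdx6 and Sod3.

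The other transferase classes held no call. Gsta4, an alpha-class enzyme for lipid aldehydes, had 28.6 ± 0.429 CPM in C57BL/6 against 27.5 ± 3.42 CPM in DBA/2 (SD over 3 libraries each), with a 95% interval of -0.23 to 0.12 on the log2 scale. Gstz1, maleylacetoacetate isomerase, had 49.4, 49.9 and 47.9 CPM in C57BL/6 and 52.7, 51.6 and 51.4 CPM in DBA/2, a complete separation by a log2 fold change of 0.08 (95% interval -0.04 to 0.20). Of its exon bases 12.2% are shared with genes on the other strand. Gstt2, a theta-class gene, had 1.87, 1.75 and 1.6 CPM in C57BL/6 and 2.76, 2.59 and 2.67 CPM in DBA/2. Every DBA/2 library was higher, by a log2 fold change of 0.62 ± 0.23 (SE, n = 3 each; edgeR adjusted p = 0.0534). It was the gene called higher with library size alone, and it passed again in limma on log2(FPKM + 1). Its neighbours Gstt1 and Gstt3 on chromosome 10 had log2 fold changes of 0.21 and -0.02 and were not called. Gsta3 at 0.38 and Gstk1 at -0.20 did not pass.

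Gstp1, the pi-class transferase known for its abundance in many tissues, was counted at only 21, 19 and 21 in C57BL/6 and 31, 25 and 29 in DBA/2. The libraries were separated, with a log2 fold change of 0.55 (95% interval -0.04 to 1.13) and no call. Its neighbour Gstp2 had 0 counts in every library, which allows up to 0.149 to 0.217 CPM at these depths. The transcripts of Gstp1 and Gstp2 match at 98.2% over 707 bases, and how the counting treated reads that fit both is not given in the sources used here, so these 2 levels are uncertain. The microsomal enzymes Mgst1 and Mgst3 had log2 fold changes of -0.38 and 0.04 and did not pass. The stress-inducible genes Nqo1 and Hmox1 had 95% intervals of -0.22 to 0.53 and -0.51 to 0.27 on the log2 scale, and that of Hmox1 includes the value measured for Gclm.

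The 12 genes without a test had 24 counts or fewer over all 6 libraries. Gsta1, Gstp2, Gstp3 and Prdx2-rs3 had none, and the 8 others, Gpx2, Gpx5, Gpx6, Gsta2, Gstm3, Gstt4, Mgst2 and Prdx6b, had 1 to 24.

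Other genes of the pathway, from 5 lists of 54 genes, were read in the same fit. Of these, 10 were lower in DBA/2 and 1 was higher, 18.5% and 1.85% against 13.7% and 9.09% of all genes, and library size alone gave 9 and 4. In the supply and turnover of glutathione, 3 of 13 fell (23.1%). Slc7a11, the cystine transporter subunit that feeds glutathione synthesis, had 55, 41.7 and 46.2 CPM in C57BL/6 and 29, 27.6 and 21.5 CPM in DBA/2. The groups were well separated, with a log2 fold change of -0.87 ± 0.13 (SE, n = 3 each; edgeR adjusted p = 0.000933). Its longest annotated transcript shares 373 bases at 96.0% with Tuba1a, an abundant tubulin gene with 56580 counts, so its level is uncertain. Its partner Slc3a2 fell from 91.9 ± 3.57 to 79 ± 1.79 CPM, and Abcc1, an exporter of glutathione conjugates, from 26 ± 1.65 to 19.9 ± 1.9 CPM in DBA/2 (SD over 3 libraries each). The call of Abcc1 was lost in limma on FPKM with either pseudocount.

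Other antioxidant enzymes held 4 falls among 11 genes (36.4%, beside 13.7% of all genes) and no rise. Me1, the cytosolic malic enzyme that makes NADPH, had 70.9, 68.2 and 68.7 CPM in C57BL/6 and 38.7, 39.9 and 38.3 CPM in DBA/2. It had the lowest adjusted p of these lists, 1.15e-10, with a log2 fold change of -0.83 ± 0.06 (SE, n = 3 each; edgeR). Cat, catalase, fell from 51 ± 4.57 to 37.2 ± 2.58 CPM, and Blvra, a biliverdin reductase, from 11.1 ± 0.262 to 8.55 ± 0.429 CPM in DBA/2 (SD over 3 libraries each). Blvra had an adjusted p of 0.0697 without C57BL/6 replicate 1 and 0.0656 without DBA/2 replicate 3 (edgeR). Its call was also lost in the DESeq2 Wald test. The remaining fall was in Fth1, the ferritin heavy chain, from 1537 ± 29.7 to 1318 ± 96.1 CPM in DBA/2 (SD over 3 libraries each).

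Of 9 regulators of the antioxidant response 1 fell (11.1%, beside 13.7% of all genes), 8 did not pass, and none rose. Mafk, a small MAF partner of NRF2, fell by 0.36 on the log2 scale, a call lost without C57BL/6 replicate 2 or 3 or DBA/2 replicate 2 or 3 (adjusted p of 0.0904, 0.0771, 0.0818 and 0.0671, edgeR). The call of Mafk was also lost in the DESeq2 Wald test and in limma on FPKM with either pseudocount. Nfe2l2 itself had 18.2 ± 2.26 CPM in C57BL/6 against 15.7 ± 3.21 CPM in DBA/2 (SD over 3 libraries each; adjusted p = 0.303, edgeR), and its inhibitor Keap1 70.1 ± 1.54 and 65.3 ± 3.34 CPM. Of 11 thioredoxin, glutaredoxin and sulfiredoxin genes, 1 fell (9.09%): Sesn3, a sestrin, with a log2 fold change of -0.24. Its adjusted p reached 0.133 without DBA/2 replicate 1 (0.0414 with all libraries, edgeR). It was 0.13 without C57BL/6 replicate 1 or 3 and 0.108 without DBA/2 replicate 3. The call of Sesn3 was also lost with DESeq2 size factors, library size alone and a mean of at least 5 CPM. Limma on FPKM lost it too, with either pseudocount. Among 10 genes of selenoprotein synthesis and transport 1 fell and 1 rose, 10% each, beside 13.7% and 9.09% of all genes. Selenop, the plasma selenium carrier, fell from 267 ± 16.8 to 222 ± 12.2 CPM in DBA/2 (SD over 3 libraries each). Lrp8, its receptor in brain, rose from 110 ± 6.22 to 124 ± 1.74 CPM in DBA/2 (SD over 3 libraries each), with an adjusted p of 0.0179 and of 0.134 without C57BL/6 replicate 1 (edgeR).

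Cell type markers were read in the same fit, where 13.7% of all genes tested were lower in DBA/2 and 9.09% were higher. Astrocyte markers had 6 of 10 lower and 1 higher, and their summed level was 4932 to 5217 CPM in C57BL/6 and 5066 to 5633 CPM in DBA/2. That sum is mostly Slc1a2, a glutamate transporter and the marker that rose (2689 ± 50.1 to 3314 ± 281 CPM, SD over 3 libraries each), while 8 of the 10 markers had negative log2 fold changes. Without Slc1a2 the sum was 2300 to 2490 CPM in C57BL/6 and 1952 to 2002 CPM in DBA/2. Microglia markers had 7 of 11 lower (summed 400 to 434 and 310 to 339 CPM), and oligodendrocyte markers 3 of 12 (7068 to 8835 and 4758 to 6421 CPM). All 12 oligodendrocyte markers had negative log2 fold changes, with a median of -0.43. In 10 of them the DBA/2 libraries lay below all C57BL/6 libraries, which held for 20.1% of all genes tested. Thalamus and habenula markers had 7 of 10 lower, with sums of 444 to 638 CPM in C57BL/6 and 236 to 303 CPM in DBA/2. All 10 had negative log2 fold changes, with a median of -1.09, and in all 10 the DBA/2 libraries lay below all C57BL/6 libraries. Of hippocampal neuron markers 1 of 10 was higher and none lower (5773 to 6122 and 6193 to 6538 CPM), all 10 being detected. Precursors of oligodendrocytes had 4 of 5 markers lower (333 to 352 and 267 to 287 CPM), ependyma 3 of 5 (42.4 to 52.7 and 27.3 to 40.7 CPM), and vessels 1 of 8 lower and 1 higher (215 to 287 and 268 to 311 CPM). Red blood cell and fibroblast markers held no call. Choroid plexus markers held no call among 8, with sums of 668 to 1507 and 1237 to 2718 CPM, and no marker in any list was at 0 in all libraries. Their part in the falls of the detoxification genes was not tested. Xist, the X-inactivation RNA, was counted at 3214, 1 and 6995 in C57BL/6 replicates 1 to 3 against 12, 10 and 2 in DBA/2. The fit did not separate sex from strain, also for the X-linked Prdx4. Sex may be unbalanced between the strains, because only C57BL/6 libraries held many counts of Xist. Without the 2 C57BL/6 libraries that held it, which leaves 1 library in that strain, assumed to vary like those of DBA/2, 6 of the 41 genes were called lower and none higher, where 7.25% and 3.79% of all genes tested in that fit were. These 6 were Gclm, Gsr, Gsto1, Gstm7, Gpx3 and Gpx4.

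**Figure D5:**
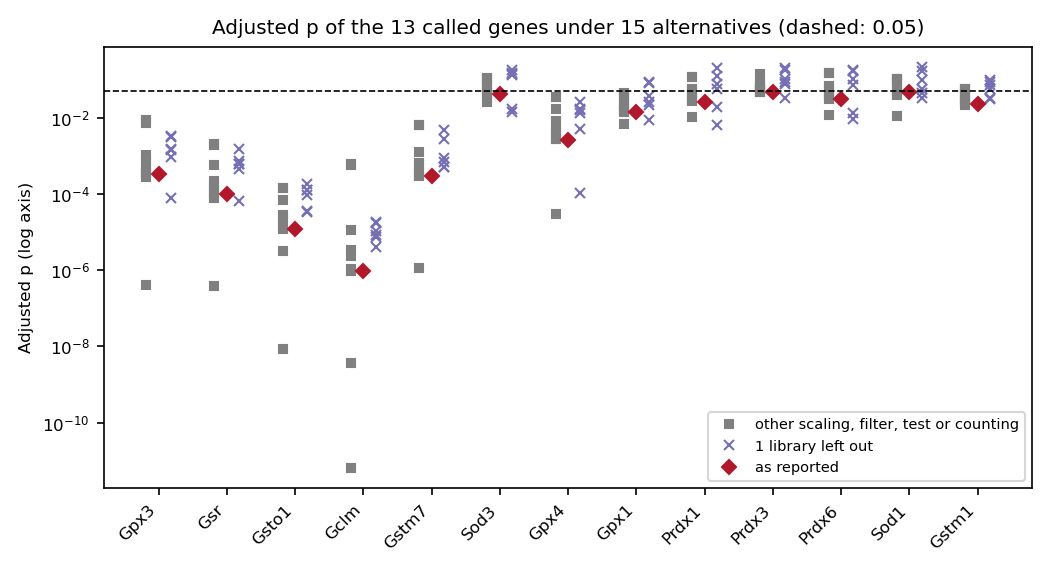
Adjusted p (log axis) of the 13 called genes as reported (red diamonds), under other scalings, filters, tests or counting (grey squares) and with 1 library left out (crosses), with a dashed line at 0.05. All points of Gpx3, Gsr, Gsto1, Gclm, Gstm7 and Gpx4 lie under the line, and each of the other 7 genes has points above it.

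The 13 lower genes lie on 10 chromosomes. With single libraries left out, the number of tested genes called lower ranged from 6 to 15. It was 6 without C57BL/6 replicate 1 and 6 without DBA/2 replicate 2, all among the 13, and 8 without C57BL/6 replicate 2, of which 7 were among the 13 and the other was Prdx4. It was 15 without DBA/2 replicate 1, of which 12 were among the 13 and the others were Gstm5, Prdx4 and Txnrd3. Of all genes, 11.1%, 12.6%, 12% and 12.5% were called lower in these fits. Across those removals the median log2 fold change of the tested genes stayed between -0.16 and -0.06.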

How the data were processed

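Hippocampal RNA was sequenced from 2 strains, with 3 libraries each, and the strain label gave the groups. The tools HISAT2 2.0.1, Trimmomatic 0.30 and Cufflinks 2.2.1 and the build GRCm38 are named per the submitters' processing notes. For the counting program, its annotation and its strand setting, the answer is not given in the sources used here. Raw gene counts were deposited by the authors as whole numbers, beside FPKM values that equal the counts scaled to listed exonic length and library total, within 0.005. A further 12 value columns fit none of the labelled samples and were left out.

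Counts were tested with edgeR 4.0.16 (quasi-likelihood, robust, TMM factors, filterByExpr) in R 4.3.3, with Benjamini-Hochberg adjustment over 17517 genes and calls at an adjusted p under 0.05. The standard error is the log2 fold change divided by the square root of F, and 95% intervals use the fit's degrees of freedom. The fit was also run on simulated data, and the outcome is not given here. A count of 0 allows up to 3 counts, which covers counting error only. Similar transcripts were found with BLAST 2.17.0 in GENCODE M21 (200 or more aligned bases, 95% identity, and a 0.5 share of the shorter transcript, the last condition added after seeing the data), and M21 gives gene positions, counted from 1.

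Members, pathway lists and marker lists were chosen with earlier results of these data known. Values are given in full for called genes and the most abundant gene of each family, and in the pathway lists for up to 3 called genes with the largest change; Fth1, Nfe2l2, Keap1 and the neighbours and uncalled genes given with values beyond this were added after their values were seen. Alternatives were DESeq2 1.42.0 size factors and Wald test, library size alone, no count filter, a mean of at least 5 CPM, limma-voom (limma 3.58.1), limma on log2(FPKM + 1) and log2(FPKM + 0.1), summed similar genes, a replicate block and leaving out each library.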

Additional observations from a re-analysis of the deposited data

How the results depend on the processing

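Results were recomputed under 15 alternatives, with the replicate block and the removal of the libraries with Xist, the latter chosen after seeing the data, counted apart. Tested genes called lower, 13 as reported, numbered 7 with library size alone and 8 with the DESeq2 Wald test. They numbered 7 in limma on log2(FPKM + 1) and 7 in limma on log2(FPKM + 0.1). Of all genes tested, 12.6%, 11.2%, 11.1% and 11% were called lower in these fits, against 13.7% as reported. Leaving out 1 library gave 6 to 15, where 11.1% to 12.6% of all genes were lower. Genes called higher, 0 as reported, numbered 1 with library size alone (Gstt2), 2 in limma on log2(FPKM + 1) (Gstt2 and Gstp1) and 1 in limma on log2(FPKM + 0.1) (Gstp1). Of all genes tested, 11.1%, 8.7% and 8.56% were called higher in these fits. With 1 library left out 0 to 1 were higher (Txnrd2), where 6.45% to 8.33% of all genes were. Pathway genes called lower, 10 as reported, were 7 to 10 with 1 library left out, beside 11.1% to 12.6% of all genes. Those called higher, 1 as reported, were 4 with library size alone, beside 11.1% of all genes. With 1 library left out they were 0 to 2 (0 without C57BL/6 replicate 1, 2 without DBA/2 replicate 1, beside 6.45% and 8.33% of all genes). The median log2 fold change of the tested genes was -0.17 with a mean of at least 5 CPM, where fewer genes are tested, and -0.16 to -0.06 with 1 library left out. The causes of the other shifts were not tested.

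No called gene changed sign under the 15 alternatives, and 6 of 13 kept the call in all of them. Of the 28 uncalled genes, 6 were called in at least 1 alternative and 7 changed sign without a call. The labels used here do not say whether the replicate numbers pair the libraries. Deviations from the strain mean correlated at 0.127, -0.0676 and 0.0034 for numbers 1, 2 and 3, and at -0.121 to 0.114 for unlike numbers. With 3 libraries a strain these values cannot show that pairing is absent. With the number as a replicate block 12 genes were lower and 0 higher, where 13.4% and 8.42% of all genes tested were. In that fit Prdx3 (adjusted p = 0.0826) and Sod1 (0.0523) lost the call and Txnrd3 (0.0493, edgeR) gained it. The block gave 11 lower and 1 higher pathway genes, beside the same shares of all genes, and a median of -0.10. Genes at a few CPM or fewer have wide 95% intervals. That of Gsto2 (-0.86 to 0.75) covers every called fall, and that of Hmox1 (-0.51 to 0.27) covers the fall of Gclm but not that of Gsr. The interval of Nqo1 (-0.22 to 0.53) does not reach the fall of Gpx4 (-0.27), and that of Txnrd2 (0.03 to 1.55) is positive throughout.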
